A study of Mus musculus with 9 samples.

Results

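The gelsolin superfamily of actin-severing and actin-capping proteins was represented by 5 genes, Gsn, Scin, Capg, Flii and Svil, out of 27179 genes in the expression matrix. All 5 were matched by Entrez identifier (Gsn 227753 on chromosome 2, Scin 20259 on 12, Capg 12332 on 6, Flii 14248 on 11 and Svil 225115 on 18), and all 5 passed the filter on low values that left 15832 genes for testing. The 5 genes were chosen because Gsn differed between the genotypes in these same libraries, and the other 4 as its relatives. Their genotype values are therefore a description and carry no test. RNA was measured in lineage-negative, tdTomato-positive cells sorted from the fibrous tissue that formed around a tibial implant in mice, 2 weeks after surgery. The conditional knockout (cKO) libraries, 5 in number, came from Lepr-CreERT;Tdtomato;Grem1fl/fl mice, in which both alleles of Grem1, a gene for a secreted antagonist of bone morphogenetic proteins, are flanked by loxP sites. The 4 control libraries came from Lepr-CreERT;Tdtomato littermates, which carry the same Cre and reporter and no floxed Grem1. Tamoxifen was given in both groups, so that the reporter marks cells in which the leptin receptor gene Lepr was active at that time and their progeny, and the Cre acts on the floxed alleles in the same cells. The ages of the mice are not given in the labels.

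Actin filaments are built from monomers and are taken apart again by proteins that cut, cap or depolymerise them. Gelsolin, the product of Gsn, binds calcium, severs a filament and stays on its fast-growing end as a cap, and a secreted form in plasma clears actin released from damaged cells. Fibroblasts are rich in it. Its relatives share the gelsolin repeat domain and differ in what they do with it: scinderin (Scin) severs and caps like gelsolin, CapG (Capg) caps without severing and is well known from macrophages, flightless I (Flii) joins gelsolin repeats to leucine-rich repeats and also acts as a transcriptional coactivator, and supervillin (Svil) links the membrane to actin and myosin II and has a longer form in muscle.

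Gsn has 3 annotated starts in RefSeq (assembly GRCm38.p6), whereas Scin, Capg and Flii have 1 each in the same table. The gene counts add the transcripts of all starts together, so the starts cannot be told apart in these data. The 250 bases before each Gsn start are shown because Gsn is the member on which the family's values turn, and the window before Scin is shown for contrast, since Scin had the next largest difference and the opposite sign. The Gsn windows lie on the plus strand at chr2:35256109-35256358, chr2:35266494-35266743 and chr2:35282130-35282379, and the Scin window lies on the minus strand at chr12:40134229-40134478. Each is written from 5′ to 3′, and capitals mark matches to the motifs searched.
Gsn start 1: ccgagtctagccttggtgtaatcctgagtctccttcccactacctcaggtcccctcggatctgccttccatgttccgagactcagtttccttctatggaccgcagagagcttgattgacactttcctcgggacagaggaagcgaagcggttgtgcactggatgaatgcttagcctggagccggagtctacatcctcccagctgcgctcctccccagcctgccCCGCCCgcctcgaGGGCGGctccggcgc
Gsn start 2: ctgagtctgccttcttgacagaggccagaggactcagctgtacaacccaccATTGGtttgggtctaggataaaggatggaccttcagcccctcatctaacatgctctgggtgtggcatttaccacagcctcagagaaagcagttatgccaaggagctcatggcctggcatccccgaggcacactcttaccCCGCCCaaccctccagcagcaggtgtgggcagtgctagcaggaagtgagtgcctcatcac
Gsn start 3: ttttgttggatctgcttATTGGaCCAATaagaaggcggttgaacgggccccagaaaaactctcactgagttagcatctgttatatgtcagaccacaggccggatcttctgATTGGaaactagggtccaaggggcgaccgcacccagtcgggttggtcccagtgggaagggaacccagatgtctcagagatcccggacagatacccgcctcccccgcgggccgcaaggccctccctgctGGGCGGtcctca
Scin start 1: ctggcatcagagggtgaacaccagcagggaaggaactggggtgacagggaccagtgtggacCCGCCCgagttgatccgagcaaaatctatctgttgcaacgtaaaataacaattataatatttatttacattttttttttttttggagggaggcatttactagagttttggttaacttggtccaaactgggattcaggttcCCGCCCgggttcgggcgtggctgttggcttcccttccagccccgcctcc
Motifs were searched on both strands in these windows and in the 32817 windows of the same length before all annotated starts. They were the GC box (GGGCGG), the CCAAT box (CCAAT), the TATA box (TATAAA), the AP-1 site (TGANTCA), a GC-rich SMAD element (GGCGCC) and, by name alone, the CArG box bound by serum response factor. The GC box occurred 2 times before Gsn start 1, 1 time before start 2, 1 time before start 3 and 2 times before Scin, and 32.7% of all windows held at least 1. The CCAAT box occurred 1 time before Gsn start 2 and 3 times before start 3, and 33.8% of all windows held it. No match to the other 4 motifs was found in these windows; they occurred in 12.4% (TATA box), 6.8% (AP-1 site), 9.6% (SMAD element) and 1.5% (CArG box) of all windows. No match to any of the 6 motifs was found before Capg or Flii. The windows differed in base composition: Gsn start 1 had 60.8% G and C with 15 CpG dinucleotides, start 2 had 56% with 2, start 3 had 57.6% with 12, and Scin had 49.2% with 9, against a median of 52.4% and 6 over all windows.

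The libraries held 43.5 to 87.2 M reads in the cKO group and 44.8 to 53.4 M in controls, as recovered from the normalized counts. Grem1 itself had 83.2, 46.4, 125, 133 and 60.8 normalized counts in cKO replicates 1 to 5, against 736, 517, 676 and 356 in control replicates 1 to 4, so every library lay on the side its label gives. Of the defining markers of the labelled cell type, none of the 11 LEPR stromal genes listed was at 0 throughout a group. They summed to 94810 to 213526 normalized counts in cKO libraries and 104061 to 384177 in controls. No gene of any other marker list used here was at 0 throughout a group either, so this does not single out the labelled cells. Lepr itself varied widely, from 1347 to 15785 in cKO libraries and from 935 to 40594 in controls. Some libraries stood apart. cKO replicate 5 was the only cKO library under 60 M reads, and leaving it out raised the number of genes past the test to 3562. cKO replicate 2 had the highest macrophage and neutrophil marker sums of the cKO group. Control replicates 1 and 3 had endothelial marker sums of 172490.5 and 208112, against 9142 and 13719 in controls 2 and 4. In sorted bulk RNA, fewer cells of a type and less RNA per cell cannot be told apart.

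All 5 cKO libraries held more Gsn than any of the 4 controls. It had 2113033, 757107, 1097049, 1912830 and 416142 normalized counts in cKO replicates 1 to 5, against 148758, 91997, 139952 and 106002 in control replicates 1 to 4. cKO replicates 1 and 4 were the highest and cKO replicate 5 was the lowest of its group, and the groups did not overlap. The lowest cKO library was 2.8 times the highest control. Over the mean of the controls, cKO replicates 1 to 5 stood at 17.4, 6.22, 9.02, 15.7 and 3.42. The level of Gsn varied 5.08-fold among cKO libraries and 1.62-fold among controls. The log2 difference, cKO minus control, of log2(normalized count + 1) was 3.16 (SE 0.50, 5 cKO and 4 control libraries). In the authors' deposited table the log2 fold change of Gsn was 3.37 with a standard error of 0.43. The counts rest on 314703 to 2870754 reads in cKO libraries and 66691 to 129989 in controls, so that counting error at 95% confidence was at most 0.76% of any value and the spread lies between libraries. At like depth, cKO replicate 5 alone differed from the 4 controls by 1.80, and without that library the difference was 3.50.

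**Figure D1:**
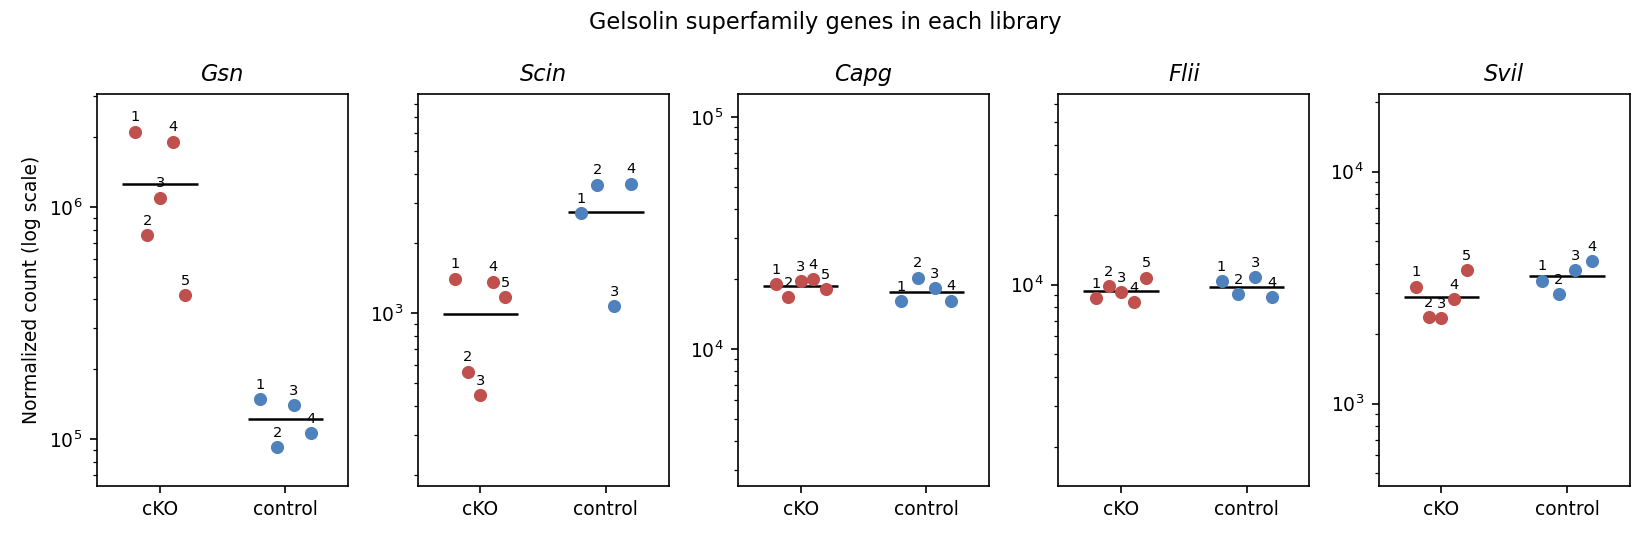
Normalized count (vertical log axis, the same span of fold in each panel) of the 5 gelsolin superfamily genes in 5 cKO libraries (red) and 4 control libraries (blue); each point is a library with its replicate number and the line is the group mean. Gsn lies between 416142 and 2113033 in cKO libraries and between 91997 and 148758 in controls, while the points of Scin, Capg, Flii and Svil overlap between the groups.

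Gsn made up a larger part of every cKO library than of any control. It accounted for 3.76%, 1.29%, 1.93%, 3.30% and 0.723% of all normalized counts in cKO replicates 1 to 5, against 0.246%, 0.142%, 0.243% and 0.168% in control replicates 1 to 4. By normalized count per kb of exon it was the most abundant of all genes with an annotated length in cKO replicates 1 and 4, the 2nd in replicate 3, the 5th in replicate 5 and the 7th in replicate 2. In the controls it ranked 28th, 51st, 28th and 40th on that scale. Its level per kb was also set against that of Actb (cytoplasmic β-actin) within each library, which needs no scaling between libraries. The ratio of Gsn to Actb per kb was 15.1, 3.58, 7.36, 13.5 and 2.96 in cKO replicates 1 to 5, against 1.12, 0.515, 0.953 and 0.725 in control replicates 1 to 4, again without overlap. Actb was 132854 ± 26190 normalized counts in cKO libraries and 128219 ± 16430.5 in controls (SD, n = 5 and 4) and did not pass the test (log2 difference 0.040, SE 0.20, limma adjusted p = 0.915).

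The make-up of the family followed Gsn. Per kb of exon, Gsn was 92.9% to 98.5% of the summed level of the 5 members in cKO libraries, against 72.1% to 83.1% in controls. Capg, the next most abundant, was 1.11% to 5.03% in cKO libraries and 11.2% to 19.8% in controls. The summed level of the 4 members other than Gsn was 9843 ± 505 normalized counts per kb in cKO libraries and 10162 ± 778 in controls (SD, n = 5 and 4), with ranges of 8970 to 10279 and 9596 to 11293 that overlap. The order of levels per kb in the cKO group was Gsn (398870 ± 231980), Capg (7378 ± 515), Flii (1864 ± 181), Scin (330 ± 152) and Svil (271 ± 56.4; mean ± SD, n = 5). In controls it was the same order, with Gsn at 38542 ± 8566, Capg at 6978 ± 800, Flii at 1937 ± 185, Scin at 915 ± 397 and Svil at 332 ± 46.3 (mean ± SD, n = 4). In the cKO group the means of Scin and Svil lay within their SDs of each other, and in controls their SDs did not meet. Per kb, Scin lay below Svil in cKO replicates 2 and 3 and above it in 1, 4 and 5. In control replicate 3 they were near level, at 358 and 351. By normalized count, not divided by length, Svil had the higher mean, 2895 against 989 in the cKO group and 3551 against 2743 in controls. Every other pair of neighbours per kb was separated by more than their SDs in both groups.

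**Figure D2:**
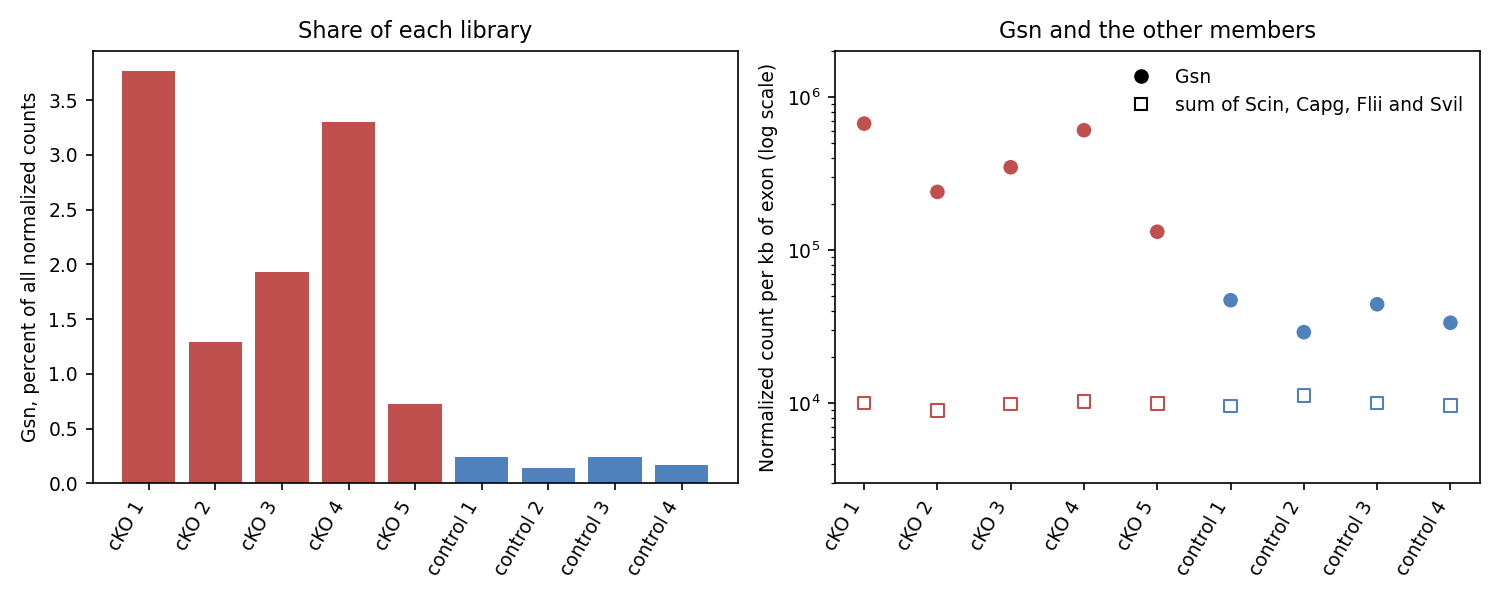
Left, Gsn as a percent of all normalized counts in each library (cKO red, control blue), from 0.723% to 3.76% in cKO libraries and 0.142% to 0.246% in controls. Right, level per kb of exon (log axis) of Gsn (filled circles) and of Scin, Capg, Flii and Svil summed (open squares) in the same libraries; the squares stay between 8970 and 11293 while the circles separate the groups.

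Scin, the closest relative of gelsolin in function, had the opposite sign. It had 1407, 560, 443, 1366 and 1172 normalized counts in cKO replicates 1 to 5, against 2701, 3587, 1074 and 3611 in control replicates 1 to 4. Control replicate 3 lay below cKO replicates 1, 4 and 5, so the groups overlapped, and the other 3 controls lay above every cKO library. The log2 difference was -1.48 (SE 0.46). Scin is a low gene here, with 653 to 1911 reads in cKO libraries and 998 to 2600 in controls, and a counting error of at most 7.75% (95% confidence). The cartilage marker list (16 genes, none at 0 throughout a group) moved with it in part: its summed count was 165203 to 1324465 in cKO libraries and 2053956 to 4890746 in controls, control replicate 3 had the lowest control sum as it had the lowest control Scin, and cKO replicate 3 was lowest in both within its group. cKO replicate 5 had the highest cartilage sum of the cKO group and an intermediate Scin. The part of cartilage cells in the Scin difference was not tested.

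Capg and Flii were nearly level across all 9 libraries. Capg had 19048, 16713, 19546, 19954 and 18039 normalized counts in cKO replicates 1 to 5, against 16001, 20267, 18218 and 16106 in control replicates 1 to 4. The groups overlapped fully, and the log2 difference was 0.084 (SE 0.11). The summed macrophage and monocyte list (17 genes, none at 0 throughout a group) was 7723 to 134486 in cKO libraries and 33901 to 72067 in controls. All 17 had a read in cKO replicate 2, and 12 of them in each of the other cKO libraries. In the cKO group the library with the highest sum, replicate 2, had the lowest Capg; in controls the libraries with the highest sums, replicates 2 and 3 at 72067 and 53010, had the highest Capg. The part of macrophages in these values was not tested. Flii had 8721, 9847, 9278, 8421 and 10702 normalized counts in cKO replicates 1 to 5, against 10341, 9106, 10758 and 8847 in control replicates 1 to 4. These groups also overlapped, and the log2 difference was -0.056 (SE 0.11), a sign that turned under per-million scaling (0.040, and 0.069 with Gsn left out of the total), without controls 1 and 3 together (0.060) and in cKO replicate 5 alone (0.14). The Flii locus overlaps Llgl1, which reached 6840 normalized counts, and since the strand setting of the counting is not given in the sources used here, reads in the shared stretch cannot be assigned with certainty. The SD of Capg and Flii within groups was 0.13 and 0.14 log2 units, which only 3.3% and 3.9% of the genes tested undercut, and the median gene had 0.45. Gsn and Scin had 0.77 and 0.80, and for Gsn most of it lay in the cKO group (SD 0.97 log2 units in cKO libraries and 0.33 in controls).

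Svil was slightly lower in the mean. It had 3196, 2358, 2341, 2811 and 3769 normalized counts in cKO replicates 1 to 5, against 3380, 2956, 3761 and 4108 in control replicates 1 to 4. cKO replicate 5 lay above 3 of the controls and cKO replicate 1 above 1 of them, so the groups overlapped. The log2 difference was -0.31 (SE 0.17), and cKO replicate 5 alone differed from the controls by 0.096, the other sign. Skeletal muscle genes, in whose cells a longer form of supervillin is known, were far higher in the cKO libraries: the 17 listed genes, none at 0 throughout a group, summed to 93650 to 826051 normalized counts in cKO libraries and 527 to 2526 in controls. The number of them with a read was 12, 17, 11 and 8 in control replicates 1 to 4, and 17 in every cKO library. Among cKO replicates 1 to 4, Svil was higher in replicates 1 and 4, which had the highest muscle sums, than in 2 and 3, and it was highest of all in replicate 5, whose muscle sum was 102746. The part of muscle in the Svil values was not tested. Forms of Svil are not separated in gene counts.

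Of the 5 members, 1 (Gsn) lay past an adjusted p of 0.05 in the limma fit, where 7.48% of all genes tested did, and 1 (Gsn) had groups that did not overlap, where 11.4% of all genes did. The members were chosen on this contrast, so nothing is read from these counts. Which members lay past the threshold changed with the setting, and nothing is read from that either. Gsn was not past it without control replicates 1 and 3 together (log2 difference 3.44). With only libraries under 60 M reads, of which 1 is a cKO library, the log2 difference of Gsn was 1.80. Scin was past the threshold with DESeq2 and without control replicate 3. Across all 15832 genes 730 were higher and 454 lower in cKO libraries. With each library scaled to its total the split was 1088 higher and 356 lower, and with Gsn left out of that total 1218 and 347.

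**Figure D3:**
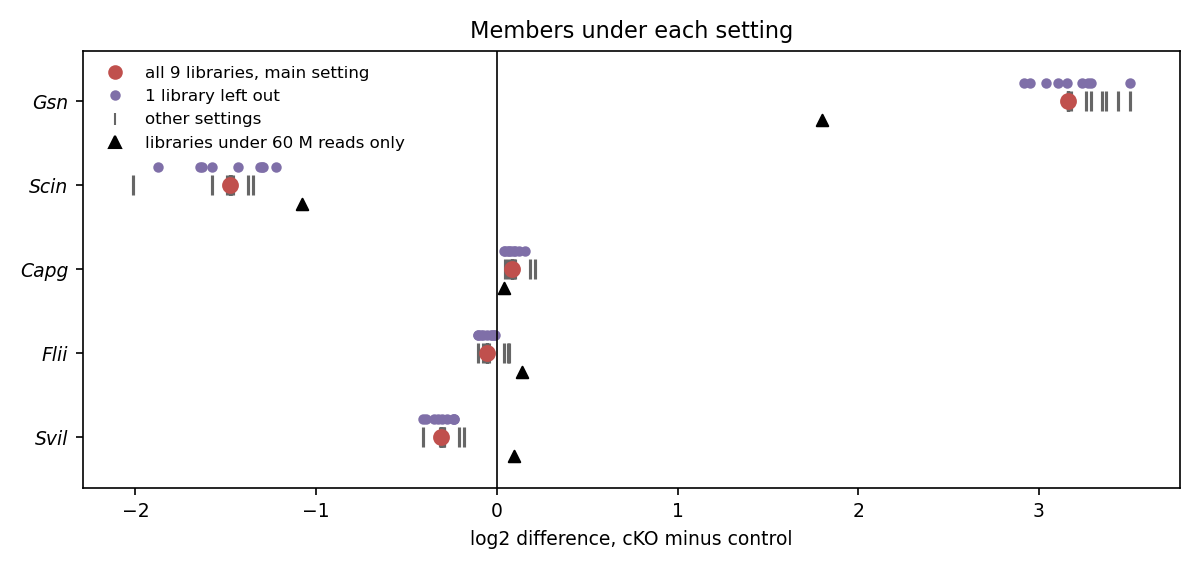
Log2 difference, cKO minus control (horizontal axis), of each member in the main setting (large red points), with 1 library left out (small points), under other settings (bars) and in libraries under 60 M reads only (triangles). Gsn stays between 1.80 and 3.50 and Scin between -2.01 and -1.08, whereas Capg, Flii and Svil stay between -0.41 and 0.21.

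The remaining genes of the superfamily were low. Vill, a villin-like gene, had 347, 551, 272, 201 and 678 normalized counts in cKO replicates 1 to 5, against 853, 1086, 701 and 1218 in control replicates 1 to 4. All cKO libraries lay below all controls, as did 4.6% of all genes tested, and the difference did not pass the test (log2 difference -1.34, SE 0.37, limma adjusted p = 0.0554). That call depends on the fit: Vill was past the threshold with DESeq2 and without cKO replicate 5, and its adjusted p in the authors' deposited table was 0.0152. Avil (advillin, known from sensory neurons) had 0 to 104 normalized counts in cKO libraries and 5.4 to 74.3 in controls and did not pass either (limma adjusted p = 0.790). Vil1 (villin, the intestinal microvillus protein) did not pass the filter, with at most 15 reads in any cKO library and at most 14 in any control.

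The 10 genes whose profile over the 9 libraries was nearest to that of Gsn were Tnxb (tenascin XB), Clec3b (tetranectin), Entpd2 (an ectonucleotidase), Ccn3 (a matricellular protein), Tubb4a (a β-tubulin), Arhgap20, Qpct (glutaminyl-peptide cyclotransferase), Apod (apolipoprotein D), Efemp1 (fibulin 3) and Tmem38a (an intracellular cation channel). Likeness was measured as the root mean square difference of log2 profiles, each centred on its own mean, and ran from 0.222 for Tnxb to 0.420 for Tmem38a, with a median of 1.80 over all genes compared. Tnxb had 28376, 10538, 17586, 26499.9 and 6187 normalized counts in cKO replicates 1 to 5, against 2055, 849.7, 1769 and 1674 in control replicates 1 to 4. Clec3b had 20813, 10017, 10276, 22394 and 5497 normalized counts in cKO replicates 1 to 5, against 1829, 1370, 1322 and 1255 in control replicates 1 to 4. As with Gsn, cKO replicates 1 and 4 were highest and cKO replicate 5 lowest of the cKO group for both genes. Both were chosen for their likeness to Gsn over these libraries, so the shared order follows from that choice. Tnxb, Clec3b, Ccn3, Apod and Efemp1 encode secreted proteins of matrix or plasma by common knowledge. The share of such genes among all genes tested was not counted, so no theme is read from them. The nearest to Scin were Impa2, M1ap and Comp (cartilage oligomeric matrix protein, a gene of the cartilage list), at 0.429 to 0.466 against a median of 1.13. Capg had Wsb2, Nsmce2 and Polr2d nearest (0.0662 to 0.0673), Flii had Taf1c, Prkrip1 and Plscr3 (0.0721 to 0.0787), and Svil had Elk4, Uck1 and Lgals3bp (0.0915 to 0.109). The profiles of these 3 members, and of the genes nearest to them, vary little.

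**Figure D4:**
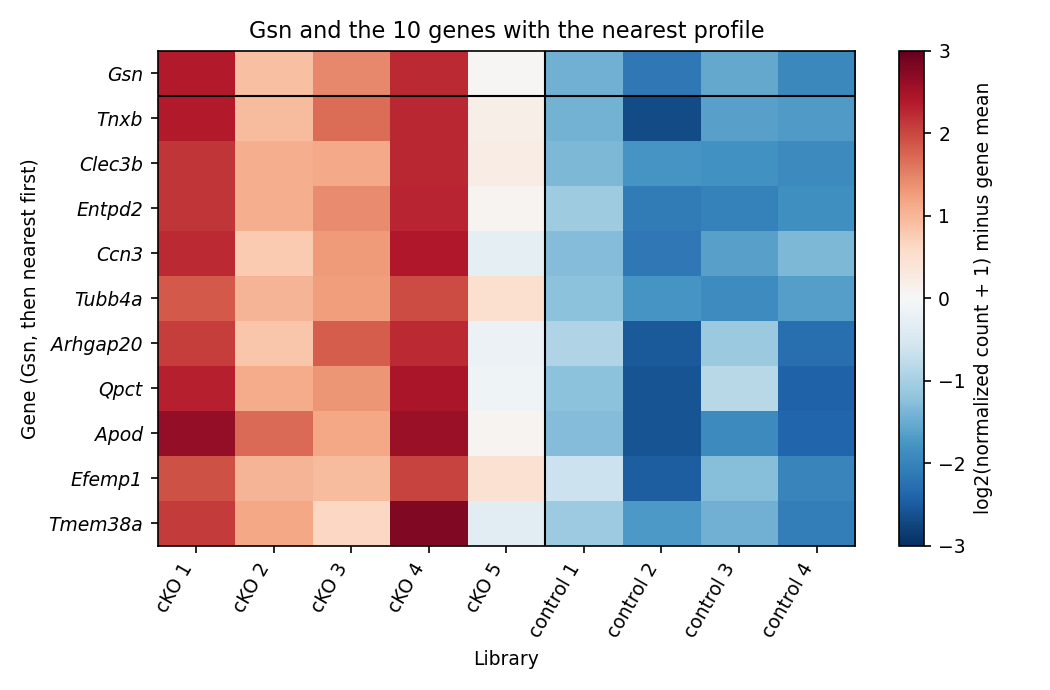
Log2(normalized count + 1) minus each gene's own mean (colour, red above and blue below) of Gsn, in the top row, and of the 10 genes with the nearest profile, nearest first, in 5 cKO libraries and 4 control libraries. Every row is highest in cKO replicates 1 and 4 and lowest among cKO libraries in replicate 5, with controls below. The rows were chosen for their likeness to Gsn over these libraries, so the shared pattern follows from that choice.

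Marker lists of other cells and states were set beside Gsn. The Pi16-type fibroblast list (12 genes, Clec3b among them, none at 0 throughout a group) summed to 375415, 210707, 262769, 387631 and 190724 normalized counts in cKO replicates 1 to 5, against 145836, 133519, 135864 and 131633 in control replicates 1 to 4. Its order among cKO libraries was that of Gsn except that replicates 1 and 4 changed places. The Schwann list (12 genes) was 66344 to 145569 in cKO libraries and 29308 to 35539 in controls, and cKO replicates 1 and 4 were again highest and replicate 5 lowest. The skeletal muscle sums were likewise highest in cKO replicates 4 and 1, at 826051 and 526296, while replicate 3 had the lowest, 93650, and the third highest Gsn. The summed osteoclast list (7 genes) was 4882 to 35585 in cKO libraries and 10966 to 38474 in controls, and the neutrophil list (8 genes) 46108 to 779520 in cKO libraries and 130743 to 579410 in controls. The part of any of these cells in the Gsn difference was not tested.

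Other genes of actin turnover changed in both directions, and most did not pass the test. Of 81 genes in 6 lists, 79 were tested, 9 rose and 6 fell (limma, adjusted over all genes), and the median log2 difference was -0.090, against -0.0039 for all genes tested, of which 4.61% were higher and 2.87% lower. The 9 include Lmod2, Lmod3 and Tmod4, which passed the filter on low values only through the cKO libraries. Of 6 actin genes 1 rose: Acta1, the actin of skeletal muscle, had 157077 ± 132556 normalized counts in cKO libraries and 255 ± 151 in controls (SD, n = 5 and 4; log2 difference 9.08, SE 0.80, limma adjusted p = 0.000635; 8.42 without control replicate 4). Actc1, the actin of heart muscle, had 356 ± 222 normalized counts in cKO libraries and 33.6 ± 37.2 in controls and did not pass (log2 difference 4.28, limma adjusted p = 0.0687). DESeq2 called 2 actin genes higher and 2 lower, where over all 15832 genes tested it called 1567 higher and 972 lower. The smooth muscle actins Acta2 and Actg2 differed by -0.53 and -1.68 and did not pass. Actg1, the second cytoplasmic actin, was 4263 ± 2098 in cKO libraries and 7602 ± 624 in controls and did not pass (limma adjusted p = 0.0595); it and Actb have processed pseudogenes, with which reads may be shared.

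Among 25 genes of filament severing, monomer binding and turnover, 24 were tested, 2 rose and 1 fell. Of all genes tested, 4.61% were higher and 2.87% lower. The cofilin family is the other main filament-severing family of animal cells. Cfl2, muscle cofilin, rose to 7796 ± 2795 normalized counts in cKO libraries, against 2864 ± 514 in controls (2.59-fold, limma adjusted p = 0.0212), while Cfl1, the non-muscle cofilin, had 27653 ± 9836 and 43699 ± 1259 (limma adjusted p = 0.0658) and Dstn, destrin, 35737 ± 6944 and 24550.4 ± 1480 (limma adjusted p = 0.0850), cKO first in each pair, and neither passed. Cap2, a cyclase-associated protein found in striated muscle, rose 3.90-fold (limma adjusted p = 0.00756). Ssh1, a phosphatase that activates cofilin, fell to 799 ± 101, against 1367 ± 103 in controls (limma adjusted p = 0.0204). Tmsb4x, the gene of the monomer-binding thymosin β4, did not pass the filter, with at most 8.83 normalized counts in cKO libraries and 4.19 in controls; its transcript is abundant in most cells, and how reads that map to several places were counted is not given.

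Over all 15832 genes tested, limma called 730 higher and 454 lower, edgeR 516 and 270, and DESeq2 1567 and 972. In the capping and pointed-end list, of 15 genes, edgeR called 3 higher and 0 lower, and DESeq2 5 and 1. In the limma fit 6 rose and 1 fell. Of those 6, Lmod2, Lmod3 and Tmod4 passed the filter on low values only through the cKO libraries, where they are high, so their values are given with no p. They are still counted in those 6 and in the 9 that rose over all lists. The tropomodulin and leiomodin genes cap or extend the slow-growing ends of filaments. Lmod2, a leiomodin of striated muscle, had no read in any control and 1191, 472, 408, 1879 and 15.9 normalized counts in cKO replicates 1 to 5, at least 203-fold higher in the mean if 3 reads per control library are taken as the floor, and at least 134-fold without cKO replicate 4. Its fitted log2 difference, 8.55, was 9.66 without cKO replicate 5. Tmod4, of skeletal muscle, had 1596 ± 1514 normalized counts in cKO libraries and 30.9 ± 57.6 in controls (log2 difference 7.47; 8.95 without control replicate 2, and 6.65 without control 1 or control 4). Tmod2, of neurons, rose 4.09-fold (limma adjusted p = 0.0281), and Add3, an adducin that caps fast-growing ends, 2.89-fold (limma adjusted p = 0.0114). Tmod1 rose 3.31-fold (limma adjusted p = 0.0398). Lmod3 differed by 5.72 on the log2 scale, and by 7.07 without control replicate 2. Capza1, a subunit of capping protein, fell 2.16-fold (limma adjusted p = 0.0471), while its partner Capzb did not pass (19941 ± 988 in cKO libraries and 21491 ± 1344 in controls).

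Over all 15832 genes tested, 4266 had an unadjusted p under 0.05 in either direction in the limma fit. After adjustment limma called 730 higher and 454 lower, edgeR 516 and 270, and DESeq2 1567 and 972. Among 28 genes of filament nucleation, 4 were higher and 7 lower at an unadjusted p under 0.05. EdgeR called 0 of them higher and 2 lower, and DESeq2 2 and 4. In the limma fit 0 rose and 2 fell. Of the 2 that fell, Arpc1b, a subunit of the Arp2/3 complex, had 12062 ± 3777 normalized counts in cKO libraries and 22570.1 ± 1277 in controls (limma adjusted p = 0.0184), and the formin gene Fmnl3 4912 ± 1088 and 9610 ± 2297 (limma adjusted p = 0.0228), cKO first. Of 4 genes for partners of flightless I and supervillin, 2 fell, where 2.87% of all genes tested did. The list is short and was chosen with earlier results known, so nothing is read from this count. Myh9, the heavy chain of non-muscle myosin II, had 8873 ± 2910 in cKO libraries and 18939 ± 2094 in controls (limma adjusted p = 0.0142), and Mylk, myosin light chain kinase, 3288 ± 806 in cKO libraries and 6125 ± 1136 in controls (limma adjusted p = 0.0271). Lrrfip1 and Lrrfip2, which bind flightless I, did not pass (limma adjusted p = 0.0904 and 0.919). Acta1, Cap2, Add3 and Myh9 remained past the threshold with any 1 library left out. A further 10 calls were lost without cKO replicate 1 and without cKO replicate 4, 8 of them without control replicate 1, 8 without control 3, 7 without control 2, 7 without control 4, 4 without cKO replicate 3 and 2 without cKO replicate 2, with limma adjusted p of at most 0.109. Lmod3 and Tmod4, which passed the filter on low values only through the cKO libraries, are among these 10 calls. No call was lost without cKO replicate 5. Between cKO replicate 5 alone and the controls the arm of 1 library leaves little power: 0 of these genes passed, and the differences kept their sign, some near the value over all libraries (Ssh1 -0.79, Tmod1 2.03, Acta1 7.76) and some smaller (Cfl2 0.42, Capza1 -0.18, Arpc1b -0.26). The skeletal muscle sums given beside Svil (Acta1 is in that list) moved with Acta1, Cfl2, Cap2, Lmod2, Lmod3, Tmod1 and Tmod4 by genotype; their part in these differences was not tested.

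**Figure D5:**
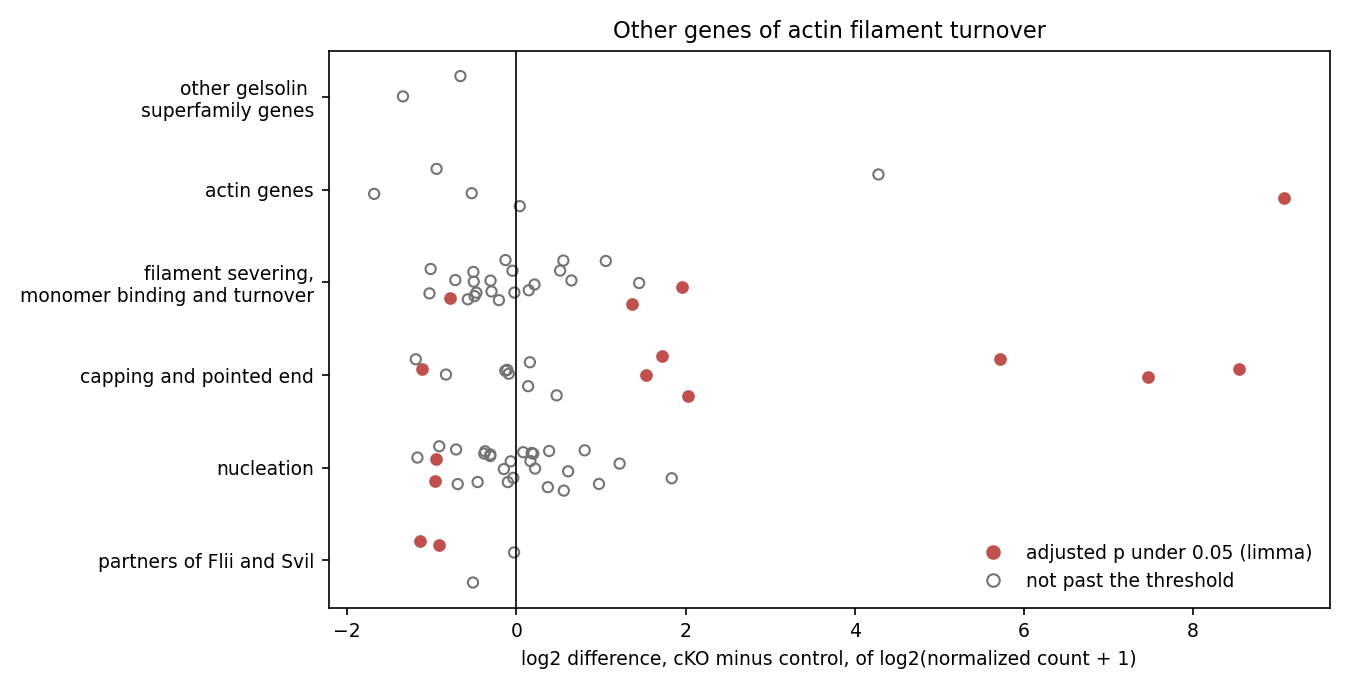
Log2 difference, cKO minus control (horizontal axis), of 79 tested genes of actin turnover in 6 lists, each point a gene (filled, limma adjusted p under 0.05; open, not past it). The largest differences are Acta1 at 9.08, Lmod2 at 8.55 and Tmod4 at 7.47, and 64 of the 79 points are open. Filled points include Lmod2, Lmod3 and Tmod4, which passed the filter on low values only through the cKO libraries.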

How the data were processed

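The 9 libraries were sequenced as paired 150-base reads of polyadenylated RNA, per the labels' protocols. The deposited matrix is a signal: normalized counts, for which the authors scaled each library's gene counts by its own size factor. The submitters' processing notes list STAR, featureCounts, DESeq2 and mm39; neither the annotation nor the strand setting is stated. A second deposited table holds the authors' log2 fold changes, test scores and p-values. Quoted from it are the fold change and standard error of Gsn and the adjusted p of Vill. Values divided by a library's smallest value above 0 came out whole (tolerance 0.01 of a read) for at least 99.99% of values, which gave reads. Intervals and floors reflect counting error alone, because PCR copies are not independent molecules. That each library is a separate mouse is not stated, so p-values measure the spread between libraries. No replicate pair agreed within sampling noise. A further 1904 IDs had no symbol, with 0.45% to 0.988% of each library's counts.

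Symbols came from an NCBI table of GRCm38.p6 (25275 IDs matched), exon lengths from GENCODE M21 and promoters from RefSeq (GRCm38.p6); these builds differ from mm39. Genes with at least 10 normalized counts in at least 4 libraries (15832) were tested on log2(normalized count + 1), which understates changes of low genes, using limma 3.58.1 under R 4.3.3 (eBayes with trend, genotype only, two-sided, Benjamini-Hochberg, threshold 0.05). The script was tested on simulated data. As a count test on recovered reads, edgeR 4.0.16 called 786 genes and DESeq2 1.42.0 called 2539. Members, lists and tests were chosen with earlier results of these data known. Genes were named as members, as their 3 relatives, by smallest p in each list (up to 4 a direction) or by nearest profile; Actb, Acta2, Actg1, Actg2, Cfl1, Dstn, Capzb, Tmod1, Tmod2, Tmsb4x, Lrrfip1 and Lrrfip2 were added after their values were seen. Alternatives were pseudocounts of 0.5 and 5, other filters and scalings, a replicate block, robust eBayes, each library left out, and a depth class; 1 more, without control replicates 1 and 3, was chosen after seeing the data.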

Additional observations from a re-analysis of the deposited data

Results flagged for a closer look

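The 34 groups of values examined were 8 superfamily genes and 9 marker lists in each genotype. Of these, 6 held 1 library far from the rest of its group. Chance flags about 1 in 20 such groups, but the groups share libraries, so the 6 cannot be judged against that rate. The macrophage and monocyte list summed to 134486 normalized counts in cKO replicate 2, far above the other cKO libraries, and the neutrophil list to 779520 in the same library. The cartilage list summed to 1324465 in cKO replicate 5, far above the other 4 cKO libraries; the same library had the least Gsn of its group. The Schwann list summed to 29308 in control replicate 4, below the other controls, which lay close together at 34813 to 35539. Vil1 stood at 10.1 normalized counts in cKO replicate 2 (15 reads), where the other cKO libraries had 2 reads in replicate 3 and 0 in the rest, and at 19.3 in control replicate 2 (14 reads), where the other controls had 0.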

How the results depend on the processing

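Over 23 alternative settings Gsn, Scin and Capg kept the sign of their log2 difference, Svil in 22 and Flii in 19. Gsn was 1.80 with only libraries under 60 M reads, and there Flii was 0.14 and Svil 0.096, both of the other sign; that setting has 1 cKO library, assumed to vary like the controls. With 1 library left out Gsn ranged from 2.92 to 3.50, Scin from -1.88 to -1.22, Capg from 0.040 to 0.15, Flii from -0.10 to -0.0077 and Svil from -0.41 to -0.23. Scaling to library totals without Gsn moved the median of all genes by 0.12; relative to it Gsn was 3.17, Scin -1.47, Capg 0.089, Flii -0.051 and Svil -0.30.

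The number of genes past the threshold was 1184. It ranged from 377 to 3562 with 1 library left out (669 at most where cKO replicate 5 was kept), and was 786 with edgeR, 2539 with DESeq2, 83 with libraries under 60 M reads and 338 without control replicates 1 and 3 together. Of the actin turnover genes, 9 rose, Lmod2, Lmod3 and Tmod4 among them, and 6 fell. With 1 library left out 4 to 16 rose and 1 to 21 fell, with DESeq2 15 and 14, and without control replicates 1 and 3 together 5 and 0. Same-numbered cKO and control libraries deviated together with correlations of 0.0705, 0.0171, -0.00621 and -0.0109 over genes. Not every library correlated best with its own number. The labels describe no pairing, and these correlations cannot exclude one. A fit with the replicate block called 2715 genes, with 14 actin turnover genes higher and 18 lower, and put Vill past the threshold. Scin was past it too, but the members were chosen on this contrast, so nothing is read from that. In the block fit cKO replicate 5 has no partner and adds nothing to the difference. The causes of these changes were not tested. A planned comparison of member proteins was not run. Counting error at this depth limits no member; the spread between libraries does.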
